A study of Homo sapiens with 6 samples.

Results

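The interferon-induced antiviral genes are described here as a named list of 43 genes in ARPE-19, a human cell line of retinal pigment epithelium (RPE) origin that is widely used as an RPE model. The members were chosen by name, with earlier results of these data known. Of the 43 genes, 42 had a row among the 37902 genes of the deposited table, and IRF9 was not analysed here. WT is the parental ARPE-19 line, kept under regular maintenance. The POLDIP2 KO line carries the genotype label POLDIP knockout. It was made from WT by lentiviral delivery of Cas9 and an sgRNA that targets the POLDIP2 coding sequence. It was kept as 1 stable line after antibiotic selection. No transduction or selection of WT is described. RNA was taken at day 3, and each line has 3 replicates. Every POLDIP2 KO library comes from that 1 stable line. The effect of the knockout therefore cannot be told apart from other differences between the lines, the virus, Cas9 and selection among them.

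Interferons are secreted proteins that warn cells of a virus. Type I and type III interferons signal through receptors and the kinases JAK1 and TYK2 to a complex that includes STAT2 and IRF9 and binds the interferon-stimulated response element (ISRE), whereas interferon gamma acts mainly on the gamma-activated site (GAS). The genes switched on in this way include sensors of viral RNA, enzymes that degrade or modify viral RNA, proteins that stop virus entry or budding, and the regulators of the response itself. Many of them are also transcribed at a low level without added interferon.

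The sequences that such factors read are shown first, because they are shared by members whose expression is compared below. Promoters of 300 bases, from 250 bases before to 50 bases after the start, were taken from RefSeq (GRCh38.p14) and matched to 34 of the 43 members by symbol. The ISRE core was searched as GAAANNGAAA on both strands, GAS as TTCNNNGAA, and the kB motif of NF-kB in a loose form on both strands. The ISRE core was found in 24 of the 34 members (70.6%), against 4.38% of the 27305 gene symbols with a promoter. GAS was found in 11 members (32.4%, against 9.38%) and kB in 23 (67.6%, against 61.7%). A match describes the letters only and does not show that a factor binds there. Stretches of 30 bases are printed 5′ to 3′ on the strand of the gene, with the ISRE core in capitals, for 6 members with a limma unadjusted p value under 0.05 (IFITM3, IFIH1, IFI44, SAMD9, DTX3L and PARP9) and for 3 without (IFIT1, ISG15 and OAS3). For IRF1, which had no ISRE match, the capitals mark GAS.
IFITM3: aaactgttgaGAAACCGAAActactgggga
IFIH1: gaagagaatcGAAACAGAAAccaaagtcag
IFI44: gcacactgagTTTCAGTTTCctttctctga
SAMD9: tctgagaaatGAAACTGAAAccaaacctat
DTX3L: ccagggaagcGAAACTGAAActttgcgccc
PARP9: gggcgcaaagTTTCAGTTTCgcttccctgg
IFIT1: ttagTTTCACTTTCcccTTTCGGTTTCcct
ISG15: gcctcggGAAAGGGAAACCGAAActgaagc
OAS3: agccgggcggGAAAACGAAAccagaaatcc
IRF1: aacagcctgatTTCCCCGAAatgacggcac

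The stretch of IFITM3 lies at chr11:320876-320905 (minus strand), that of IFIH1 at chr2:162318686-162318715 (minus strand), that of IFI44 at chr1:78649761-78649790 (plus strand) and that of SAMD9 at chr7:93118096-93118125 (minus strand). PARP9 and DTX3L start back to back on chromosome 3, and their lines above are the opposite strands of a single stretch, chr3:122564322-122564351, so these neighbours share this ISRE core. The stretch of IFIT1 lies at chr10:89392503-89392532 (plus strand), that of ISG15 at chr1:1013377-1013406 (plus strand) and that of OAS3 at chr12:112938452-112938481 (plus strand), and in IFIT1 and ISG15 it holds 2 matches. The GAS of IRF1 lies at chr5:132490879-132490908 (minus strand), 124 bases before the start. HERC6, STAT2, SAMD9L, XAF1 and CMPK2 had a promoter without a match to ISRE or GAS. Among the 29 tested members with a promoter, the median log2 fold change was 0.37 for the 21 with an ISRE core and 0.34 for the 8 without.

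The libraries held 31532797 to 45795509 recovered reads. The signal is given as normalised counts (reads divided by the size factor of the library), on which 3 reads, taken as the floor, correspond to 2.44 to 3.69. POLDIP2 itself had 3919 to 4827 normalised counts in WT and 1063 to 1248 in POLDIP2 KO, so each library followed its label. Of 10 RPE markers, RPE65 was listed at 0 in every library and the other 9 were tested. TYRP1 was at 1.04 to 27.1 normalised counts, under the floor in WT replicate 3. OTX2 was at 574 to 883, MITF at 2955 to 4503, and the keratins KRT8 and KRT18 at 29007 or more. BEST1 varied within the lines, from 61.4 to 562 in WT and from 239 to 669 in POLDIP2 KO. By limma 0 of these 9 were called. OTX2 and RDH5 were lower in all 3 same-numbered pairs, as were 15.7% of all genes tested. Of 8 leukocyte markers, AIF1, CD3E, MS4A1 and TYROBP were listed at 0 in every library. PTPRC was at 0 in WT and at 1.23 to 6.95 normalised counts in POLDIP2 KO. The summed level of the list was 1705 to 2219 in WT and 1875 to 2158 in POLDIP2 KO. Most of that sum was CD68, at 1680 to 2187 in WT and 1856 to 2129 in POLDIP2 KO. The 3 endothelial markers summed to 15.7 to 38.7 normalised counts in WT and 15.9 to 48.8 in POLDIP2 KO. The 4 fibroblast markers summed to 354 to 2175 in WT and 788 to 7598 in POLDIP2 KO, most of it COL1A1, at 2147, 320 and 677 in WT and 6956, 760 and 1953 in POLDIP2 KO. COL1A1 was higher in all 3 same-numbered pairs, with a limma adjusted p value of 0.981, and was called with the replicate block (limma adjusted p = 0.0436). COL1A2 was at 614 in POLDIP2 KO replicate 1 and at 0 to 9.45 in the other libraries. The part of these marker levels in the results below was not tested.

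Most members lay slightly higher in POLDIP2 KO, and none passed the test of single genes. The comparison used limma on log2(normalised count + 1) for the 14684 genes with a mean of at least 10 normalised counts, 34 of them members, with Benjamini-Hochberg adjustment over all genes tested. A gene was called where the adjusted p value was under 0.05 with more than a 1.5-fold difference. By limma, 0 of 34 members were called, against 0.0817% of all genes tested that were called higher (12 genes). At an unadjusted p value under 0.05, 9 of 34 members (26.5%) were higher, against 3.00% of all genes tested, and 0 were lower, against 3.47%. The mean was higher in POLDIP2 KO for 30 of 34 members (88.2%), against 49.9% of all genes tested, and the exceptions were BST2, SAMD9L, IFIT2 and IFIT5. The median log2 fold change was 0.36 over the 34 members and 0.00 (-0.00029) over all genes tested, and the quartiles of the members were 0.20 and 0.62. A low-value filter set 8 members with a row aside, so these counts do not cover all 43.

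The lines did not overlap for 10 members (29.4%), which were higher in all 3 POLDIP2 KO libraries than in any WT library, against 5.46% of all genes tested. No member lay lower in this way, against 5.44% of all genes tested. For each of the 10 an exact permutation test of the normalised counts gave p = 0.1 (two-sided), the smallest value that 3 libraries against 3 allow. The call of single members depended on the tool. The edgeR quasi-likelihood test on the recovered reads called 0 members, with 0.0613% of all genes called higher, whereas DESeq2 on the same reads called 2, HERC6 and PARP9, with 0.756% of all genes called higher.

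**Figure D1:**
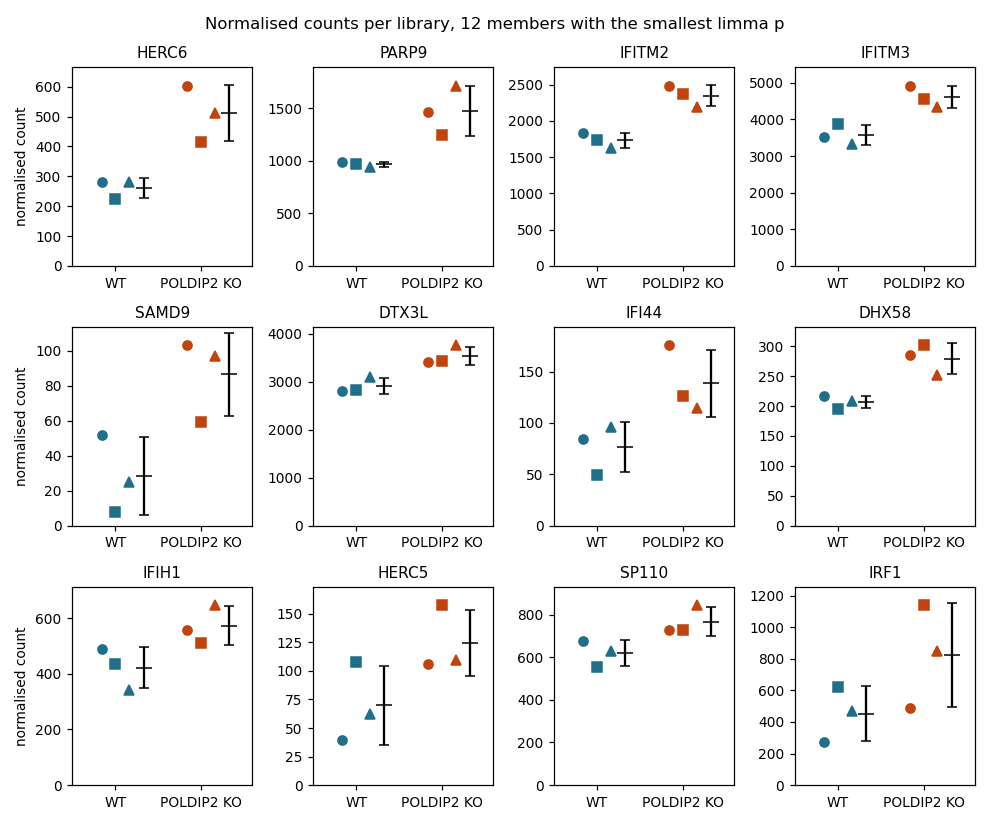
Normalised counts (linear axis from 0) of the 12 members with the smallest limma p value in each WT library (blue) and POLDIP2 KO library (orange), with circles for replicate 1, squares for replicate 2, triangles for replicate 3, and bars for the mean ± SD (n = 3). The POLDIP2 KO points lie above all WT points for 10 of the 12 members, and the lines overlap for HERC5 and IRF1.

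ISG15 is a small ubiquitin-like protein that is attached to other proteins, HERC5 is the ligase that attaches it, HERC6 is a related ligase, and USP18 removes it and dampens signalling from the interferon receptor. All 4 were higher in each same-numbered pair of libraries. HERC6 (ENSG00000138642, chr4:88378739-88443097) had 282, 223 and 280 normalised counts in WT and 604, 416 and 512 in POLDIP2 KO, given here and below in the order of replicates 1 to 3. The lowest POLDIP2 KO library thus stood well above the highest WT library. Its log2 fold change was 0.95 (standard error 0.20, 95% interval 0.49 to 1.42, limma adjusted p = 0.200), the smallest p value of the 34 members. DESeq2 on the recovered reads gave HERC6 an adjusted p value of 0.00330, and over the 12 alternative settings that keep all libraries it ranged from 0.000393 to 0.246.

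HERC5 starts 14021 bases beyond the end of HERC6 and had a similar fold change with a wider spread. Its normalised counts were 39.7, 107 and 62.6 in WT and 106, 158 and 109 in POLDIP2 KO, so that WT replicate 2 reached the level of the lower POLDIP2 KO libraries. The log2 fold change was 0.91 (standard error 0.40, limma adjusted p = 0.792). ISG15 had 147 to 214 normalised counts in WT and 176 to 257 in POLDIP2 KO (log2 fold change 0.29), and USP18 58.2 to 82.2 and 81.4 to 92.8 (log2 fold change 0.35), with overlap in both.

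PARP9 and DTX3L form a complex of an inactive ADP-ribosyltransferase and a ubiquitin ligase, and PARP14 is an active ADP-ribosyltransferase encoded nearby. PARP9 (ENSG00000138496, chr3:122527924-122564577) had 987, 964 and 944 normalised counts in WT and 1459, 1242 and 1714 in POLDIP2 KO. The WT libraries were close together and the POLDIP2 KO libraries were spread above them. The log2 fold change was 0.60 (standard error 0.14, limma adjusted p = 0.275), and DESeq2 on the recovered reads gave an adjusted p value of 0.0197 (0.0124 to 0.346 over the same settings). DTX3L (ENSG00000163840, chr3:122564338-122575203) had 2804, 2833 and 3102 normalised counts in WT and 3408, 3428 and 3758 in POLDIP2 KO. Its log2 fold change was smaller, 0.28 (standard error 0.098, limma adjusted p = 0.621), and nearly equal in the 3 same-numbered pairs (0.28, 0.28 and 0.28). The annotated genes overlap by 240 bases on opposite strands, and whether the counting used strand is not stated, so reads of that stretch may be shared. PARP14, at 2272 to 2692 normalised counts in WT and 2460 to 3192 in POLDIP2 KO, had a log2 fold change of 0.14.

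IFITM proteins sit in cell membranes and block the fusion of viruses with them. IFITM3 (ENSG00000142089, chr11:319676-329475) had the highest level per kilobase of transcript of the 34 members, with 3529, 3874 and 3318 normalised counts in WT and 4927, 4572 and 4339 in POLDIP2 KO. IFITM2 (ENSG00000185201, chr11:303655-309397) had 1837, 1738 and 1630 in WT and 2488, 2372 and 2190 in POLDIP2 KO. Neither gene overlapped between the lines. The log2 fold changes were 0.44 for IFITM2 (standard error 0.10, limma adjusted p = 0.284) and 0.37 for IFITM3 (standard error 0.11, limma adjusted p = 0.415). DESeq2 on the recovered reads gave adjusted p values of 0.0229 for IFITM2 and 0.110 for IFITM3. Neither gene reached a 1.5-fold difference, and neither was called. Of the adjusted p values given here, only that of IFITM2 with DESeq2 was under 0.05. IFITM2 and IFITM3 are near-identical paralogs, between which reads may be split, so their separate levels are uncertain. IFITM1, the third gene of the cluster, had 0, 7.02 and 3.13 normalised counts in WT and 0 in every POLDIP2 KO library, and was not tested.

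The helicases IFIH1 (MDA5), which senses long double-stranded RNA, and DHX58 (LGP2), which modulates that sensing, were higher in POLDIP2 KO in every library. IFIH1 (ENSG00000115267, chr2:162267074-162318684) had 490, 435 and 342 normalised counts in WT and 557, 510 and 648 in POLDIP2 KO. DHX58 (ENSG00000108771, chr17:42101404-42112714) had 216, 196 and 208 in WT and 285, 302 and 251 in POLDIP2 KO. The gap between the lines was narrow for IFIH1, from 490 to 510, and wider for DHX58. Their log2 fold changes were almost equal, 0.44 for IFIH1 (standard error 0.18, limma adjusted p = 0.754) and 0.43 for DHX58 (standard error 0.16, limma adjusted p = 0.687).

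SAMD9 and SAMD9L are neighbouring paralogs that restrict poxviruses and slow protein synthesis. SAMD9 (ENSG00000205413, chr7:93099513-93118023) had 52.0, 8.03 and 25.1 normalised counts in WT and 103, 59.4 and 97.3 in POLDIP2 KO, the largest log2 fold change of the 34 members, 1.88 (standard error 0.65, limma adjusted p = 0.605). The lines did not overlap, but the gap between WT replicate 1 and POLDIP2 KO replicate 2 was small against the spread within WT. The log2 fold change of SAMD9 was 2.47 without WT replicate 1 and 1.20 without WT replicate 2, when that of IFI27 was larger (2.33). IFI27 was also larger than SAMD9 without WT replicate 3 (2.26 against 1.96) and without POLDIP2 KO replicate 3 (1.92 against 1.78). The same held with a pseudocount of 0.5 (1.96 against 1.91). SAMD9L, separated from SAMD9 by 12032 bases, had 140, 103 and 151 normalised counts in WT and 93.5, 57.0 and 210 in POLDIP2 KO. POLDIP2 KO thus held both the lowest and the highest SAMD9L value, and its log2 fold change was -0.32 (standard error 0.47). The difference between these paralogs was not tested.

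Among the genes named for interferon induction, IFI44 had 84.1, 49.2 and 96.1 normalised counts in WT and 176, 126 and 114 in POLDIP2 KO, without overlap (log2 fold change 0.88, standard error 0.33, limma adjusted p = 0.677). Its neighbour IFI44L overlapped between the lines, at 9.45 to 39.1 in WT and 17.2 to 55.4 in POLDIP2 KO. IFI6 had 146 to 229 normalised counts in WT and 165 to 417 in POLDIP2 KO, and IFI35 had 288 to 386 and 291 to 594. For IFI6, IFI27 and IFI35 the highest library was POLDIP2 KO replicate 1 in each case. IFI27 was at 0 in WT replicate 1 and at 13.6 to 15.1 in the other WT libraries, against 35.7, 13.8 and 11.9 in POLDIP2 KO, so that its log2 fold change of 1.64 (standard error 1.15) came from replicate 1, and it was -0.14 with replicates 2 and 3 alone. POLDIP2 KO replicate 1 was also the highest library for COL1A2 and for other members, such as HERC6, IFITM3 and STAT2. It was not the highest for others, such as PARP9 and DHX58.

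Of the transcription factors of the pathway, IRF1 is induced by interferons and by NF-kB, and STAT2 carries the signal of type I interferons. IRF1 (ENSG00000125347, chr5:132440440-132508719) had 272, 619 and 467 normalised counts in WT and 486, 1142 and 849 in POLDIP2 KO. Within each line replicate 1 was lowest and replicate 2 highest, and the lines overlapped. Within a replicate number, however, the log2 differences were nearly the same, 0.83, 0.88 and 0.86. The limma adjusted p value was 0.830 without the replicate number and 0.0725 with it as a block, for a log2 fold change of 0.86 (standard error 0.40). DESeq2 moved across its threshold, from an adjusted p value of 0.490 to 2.47e-05 with the block (up to 0.892 over the alternative settings). With the block it called 3 members, HERC6, IRF1 and PARP9, against 1.25% of all genes called higher. The values with the block rest on pairing by replicate number, which is uncertain for replicates 2 and 3. STAT2 had 1611 to 2301 normalised counts in WT and 1817 to 2948 in POLDIP2 KO (log2 fold change 0.28). IRF7 was listed at 0 in every library.

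**Figure D2:**
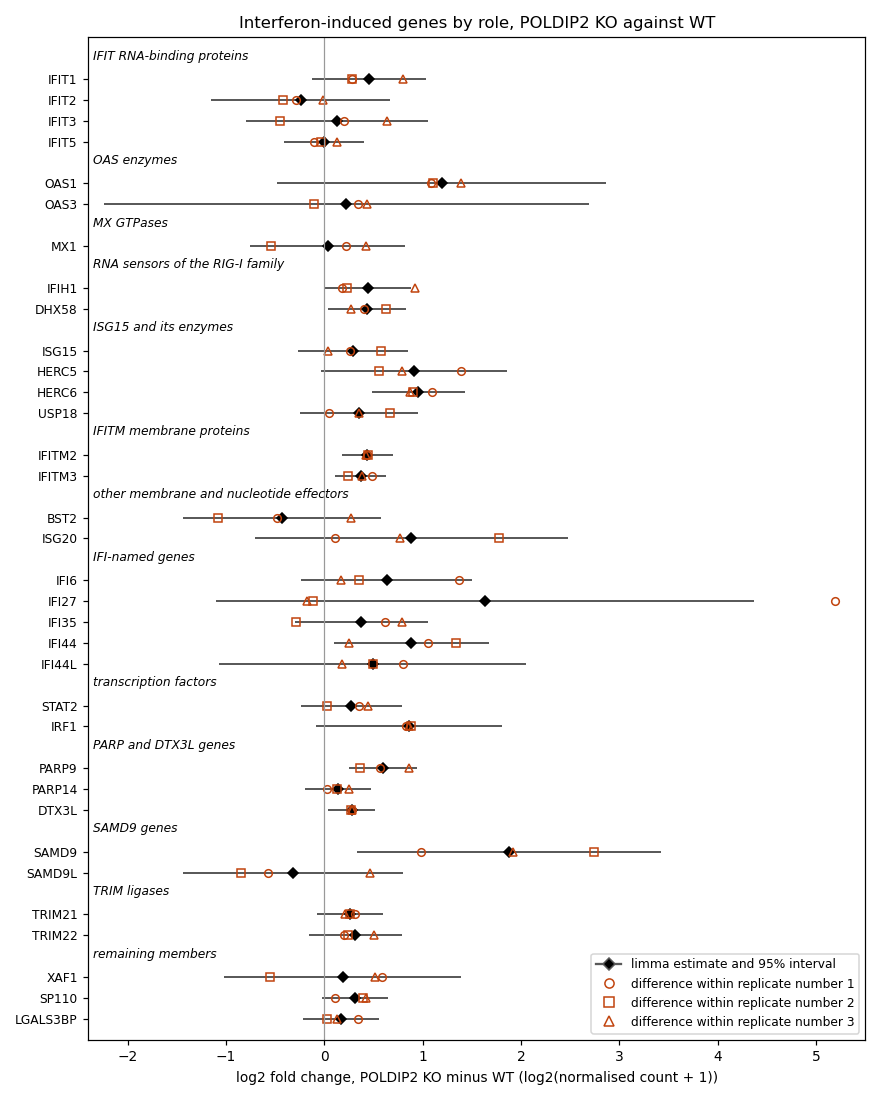
Log2 fold changes (POLDIP2 KO minus WT) of the 34 tested members by role, with diamonds for the limma estimate, lines for its 95% interval, and open symbols for the differences within replicate numbers 1, 2 and 3 (circle, square and triangle). Most diamonds lie to the right of 0, and the open symbols of IFITM2, DTX3L and IRF1 nearly coincide. The open symbols of IFIT3, IFIT5, OAS3, MX1, BST2, IFI27, IFI35, SAMD9L and XAF1 lie on both sides of 0.

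None of the tested IFIT, OAS and MX genes reached an unadjusted p value under 0.05 in limma without the block. IFIT proteins bind viral RNA with foreign 5′ ends, OAS enzymes make the messenger that activates RNase L, and MX GTPases trap viral nucleocapsids. The 4 IFIT genes, which lie in 1 cluster on chromosome 10, had log2 fold changes of 0.45 (IFIT1), 0.13 (IFIT3), -0.0047 (IFIT5) and -0.24 (IFIT2), all with limma adjusted p values of 0.922 or more. IFIT1 had 350 to 533 normalised counts in WT and 427 to 648 in POLDIP2 KO, IFIT2 265 to 610 and 217 to 457, IFIT3 571 to 1466 and 656 to 1070, and IFIT5 839 to 1128 and 823 to 1099. IFIT2 was lower in all 3 same-numbered pairs, the only member to be so, against 15.7% of all genes tested. MX1 had a log2 fold change of 0.03, with 45.4 to 83.3 normalised counts in WT and 52.9 to 77.4 in POLDIP2 KO. OAS1 had 30.2, 7.02 and 11.5 normalised counts in WT and 65.2, 16.3 and 31.8 in POLDIP2 KO (log2 fold change 1.19, standard error 0.70, limma adjusted p = 0.965). OAS3 had 402, 75.3 and 45.9 in WT and 509, 70.0 and 62.6 in POLDIP2 KO (log2 fold change 0.22, standard error 1.04). The spread of the OAS genes lay between the replicate numbers more than between the lines.

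Several members that are strongly induced by interferon elsewhere were near the floor. RSAD2 (viperin) and CMPK2, which act together in making an antiviral nucleotide, had 0 to 3.69 and 0 to 1.00 normalised counts over the 6 libraries, and OASL had 0 in WT and 0.81 to 1.23 in POLDIP2 KO, which is 1 read in each library. No fold is given for these. MX2 had 1.00 to 4.72 normalised counts in WT and 1.23 to 11.9 in POLDIP2 KO, and EPSTI1 8.03 to 18.0 in WT and 0.99 to 9.77 in POLDIP2 KO. OAS2 was listed at 0 in every library. So was HLA-E, which nucleated cells generally express, and a listed 0 is therefore not read as absence.

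Among the other members, SP110, a nuclear body protein, had 675, 554 and 629 normalised counts in WT and 727, 726 and 846 in POLDIP2 KO, without overlap (log2 fold change 0.31, standard error 0.14, limma adjusted p = 0.818). The ubiquitin ligases TRIM21 and TRIM22 had log2 fold changes of 0.26 and 0.32 and overlapped between the lines. TRIM21 was at 644 to 799 normalised counts in WT and 772 to 926 in POLDIP2 KO, and TRIM22 at 2638 to 4155 and 3550 to 4772. The tether BST2, which holds budding virions at the cell surface, was at 18.8 to 33.1 normalised counts in WT and 14.7 to 23.4 in POLDIP2 KO. The exonuclease ISG20 was at 13.6 to 27.1 in WT and 18.5 to 95.2 in POLDIP2 KO, where replicate 2 held the highest value. XAF1, a proapoptotic protein, and the secreted glycoprotein LGALS3BP had log2 fold changes of 0.19 and 0.17. XAF1 was at 9.40 to 23.1 normalised counts in WT and 13.9 to 24.6 in POLDIP2 KO, and LGALS3BP at 8018 to 9803 and 8759 to 12460.

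On the scale of mean normalised counts per kilobase of the canonical transcript, the WT levels of the 34 tested members ranged from 3.97 (IFI44L) to 5849 (IFITM3). LGALS3BP followed at 4100, IFITM2 at 1724 and TRIM22 at 1130, and DTX3L was next at 505. At the lower end stood SAMD9 at 4.17, XAF1 at 4.73 and OAS1 at 9.96. In POLDIP2 KO the same 4 genes led, with IFITM3 at 7549, LGALS3BP at 4641, IFITM2 at 2336 and TRIM22 at 1392.

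**Figure D3:**
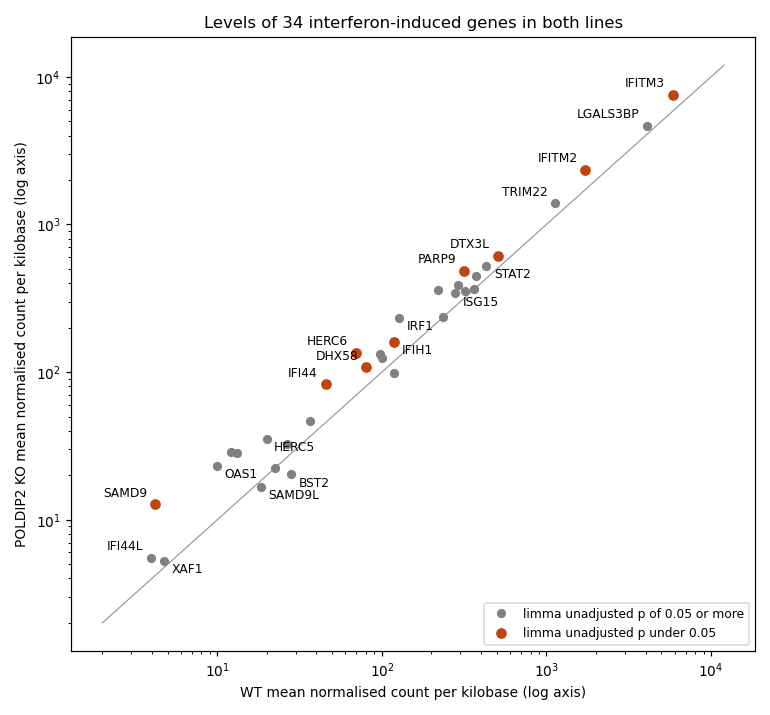
Mean normalised count per kilobase of the canonical transcript in WT and in POLDIP2 KO (both log axes, n = 3 libraries each) for the 34 tested members, with the line of equal levels. The 9 members with a limma unadjusted p value under 0.05 (orange) lie above the line over the whole range, from SAMD9 to IFITM3.

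By replicate number, the median difference of the 34 members between POLDIP2 KO and WT was 0.34, 0.27 and 0.43 on the log2 scale for replicates 1, 2 and 3, with 30, 24 and 32 members higher, while the median over all genes tested was at most 0.01. For 24 of 34 members (70.6%) POLDIP2 KO was higher in all 3 pairs, against 17.0% of all genes tested. The mean of the members' log2 values, each centred over the 6 libraries, was -0.23, -0.13 and -0.32 in the WT libraries and 0.32, 0.18 and 0.18 in the POLDIP2 KO libraries, so the lines did not overlap in this summary. When limma was fitted with replicate numbers as blocks, 13 of 34 members had an unadjusted p value under 0.05, all higher, against 5.48% of all genes tested. The added members were IRF1, HERC5, OAS1, IFIT1 and TRIM22, and IFIH1 was no longer among them.

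Some members differed between the replicate numbers in both lines. Replicate 1 was above replicates 2 and 3 in both lines for 11 members (32.4%), against 22.0% of all genes tested, with OAS1 and OAS3 among them. The log2 level of OAS3 in replicate 1 was 2.75 above the mean of replicates 2 and 3 in WT and 2.93 above it in POLDIP2 KO, and that of OAS1 was 1.64 and 1.48 above it. Replicate 1 was below both other replicates in both lines for 8 members (23.5%), against 20.5% of all genes tested, among them IRF1, IFIT1, IFIT2, IFIT3, MX1 and IFI44L. IRF1 in replicate 1 was 0.98 and 1.02 below the mean of the other replicates on the log2 scale, and IFIT2 was 0.77 and 0.85 below it. IFIT5 did not follow this order, with 887 normalised counts in WT replicate 1 and 839 in WT replicate 3. The shares of members in either direction were not far from those of all genes, and the genes named here were picked for their pattern.

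**Figure D4:**
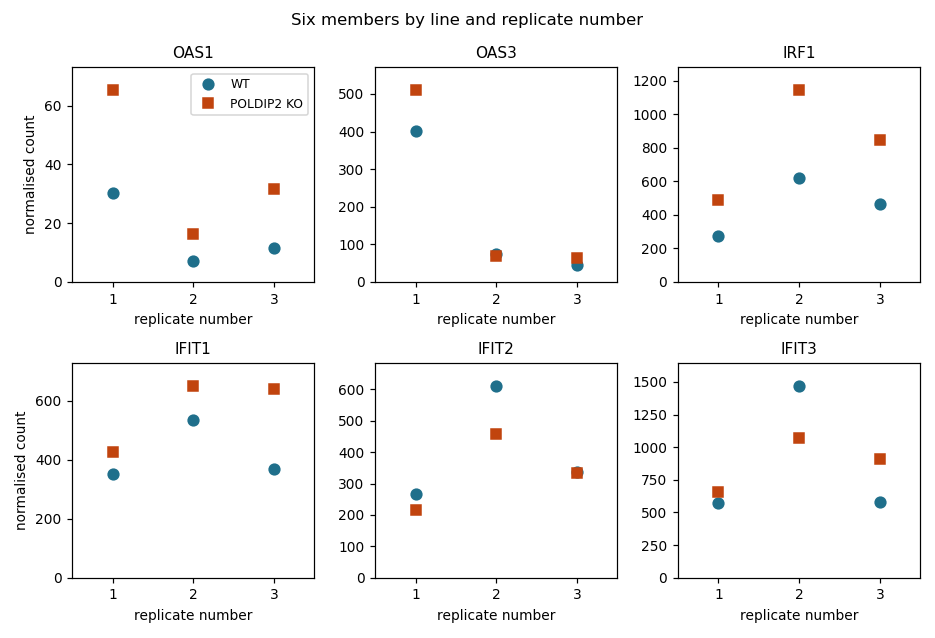
Normalised counts (linear axis from 0) of 6 members by replicate number in WT (blue circles) and POLDIP2 KO (orange squares), 1 point per library. Replicate 1 holds the highest value of OAS1 and OAS3 and the lowest value of IRF1 and of the 3 IFIT genes in both lines, and only for OAS1, IRF1 and IFIT1 does the orange point lie above the blue point in every replicate.

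Of the genes upstream of the members, 10 of 12 interferon genes were listed at 0 in every library, IFNB1 among them. IFNE, an interferon of epithelia, had 10.03 to 31.3 normalised counts in WT and 27.1 to 45.6 in POLDIP2 KO (limma adjusted p = 0.959), and IFNK had 1 read in 1 library. The 9 receptor and kinase genes were all expressed, and 0 were called or reached an unadjusted p value under 0.05. IFNAR1, a chain of the type I receptor, had 2297, 2145 and 2383 normalised counts in WT and 2533, 2623 and 2538 in POLDIP2 KO, without overlap (log2 fold change 0.17, standard error 0.094, limma adjusted p = 0.933).

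Of 8 tested genes of nucleic acid sensing, 2 reached an unadjusted p value under 0.05, both higher, against 3.00% of all genes tested, while 3 of the 8 had a lower mean in POLDIP2 KO and the median log2 fold change was 0.05. TLR3, an endosomal sensor of double-stranded RNA, had 381, 360 and 592 normalised counts in WT and 604, 607 and 867 in POLDIP2 KO (limma adjusted p = 0.677). The kinase IKBKE had 358, 337 and 410 in WT and 522, 494 and 518 in POLDIP2 KO (limma adjusted p = 0.455). RIGI was listed at 0 in every library.

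In lists of genes that interferon gamma also induces, 1 gene was called, against 0.0817% of all genes tested called higher. It was 1 of 3 tested guanylate-binding genes, of 7 listed. GBP2, a guanylate-binding GTPase, rose from 28.3, 9.03 and 15.7 normalised counts in WT to 442, 217 and 291 in POLDIP2 KO (log2 fold change 4.16, standard error 0.46, limma adjusted p = 0.0349). Its fold change was 3.78 to 4.56 on the log2 scale with a library left out. The limma call was lost without WT replicate 2 or 3 or any POLDIP2 KO replicate (adjusted p = 0.0866 to 0.170). Neither edgeR (adjusted p = 0.0642) nor limma without the trend (adjusted p = 0.0554) called GBP2. DESeq2 called it, with adjusted p values of 1.01e-14 and, with the replicate block, 3.72e-24. So did limma with the block (adjusted p = 0.0294). GBP3 had 957 to 1137 in WT and 1391 to 1467 in POLDIP2 KO (limma adjusted p = 0.256). GBP1 had 461 to 1277 in WT and 892 to 1869 in POLDIP2 KO, with overlap (log2 fold change 0.83, limma adjusted p = 0.888). Of 12 tested genes of MHC class I and antigen processing, 0 were called and 3 had an unadjusted p value under 0.05, all higher, against 3.00% of all genes tested. These were B2M, the light chain of MHC class I (log2 fold change 0.42), the transactivator NLRC5 (0.89) and the peptidase ERAP1 (0.32), with limma adjusted p values of 0.667, 0.765 and 0.754. The median log2 fold change of these 12 genes was 0.31, beside 0.36 for the 34 interferon-induced members.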

How the data were processed

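Stranded libraries of polyadenylated RNA were made from the WT and POLDIP2 KO lines (3 libraries each). The authors deposited a signal per gene, normalised counts made with Salmon 1.8, tximport and DESeq2 1.34.0 on GRCh38. The annotation release is not given in the sources used here. Symbols came from GENCODE release 44 for 34152 of 37902 genes, and 16563 genes were at 0 in every library. All 6 value columns were used. Dividing each column by its smallest value above 0 gave whole reads for 100% of values (tolerance 0.001), although this check is weak where that value is close to 1 (WT replicate 2, POLDIP2 KO replicate 3). Floors cover counting error only.

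The main test was limma 3.58.1 in R 4.3.3, with lmFit and eBayes with trend on log2(normalised count + 1), which understates fold changes of low genes. Normalised counts, not raw counts, were deposited, so edgeR 4.0.16 and DESeq2 1.42.0 on the recovered reads were alternatives. The other alternatives were quantile normalisation, recentring, a pseudocount of 0.5 or 5, no low-count filter or one at 50, eBayes without trend and robust, the replicate block, and leaving out each library. Replicates 2 and 3 alone were added after seeing the data. The fits were tested on simulated data. Figures and tables were made with Python 3.11.15, pandas 2.3.3 and matplotlib 3.10.9.

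The labels give replicate numbers 1 to 3 in both lines. Values centred within each line correlated at 0.315, 0.137 and 0.129 between same-numbered libraries across 14684 genes. All were above the limit of 0.1, so the numbers were used as pairs in the block. However, WT replicate 3 and POLDIP2 KO replicate 2 correlated at 0.147, above the same-numbered values of replicates 2 and 3. The pairing of replicates 2 and 3, and results that rest on it, are therefore uncertain. The labels call the samples replicates without saying what a shared number stands for, and p values measure the spread between these libraries.

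The members, lists and role groups were chosen with earlier results of these data known. Values in every library are given for members without overlap and for the 12 tested members with the smallest limma p value, members at the floor are given by range, and the rest by range or, where a result turns on single libraries (OAS1, OAS3, SAMD9L, IFI27), by library. From other lists, called genes, genes at an unadjusted p value under 0.05, IFNB1 and IFNAR1 are named. A further gene of the naming rule is not reported here. Other named genes were chosen after their values were seen.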

Additional observations from a re-analysis of the deposited data

How the results depend on the processing

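The count of members called by limma remained 0 under every alternative within limma, and it was 0 with edgeR, 2 with DESeq2 and 3 with DESeq2 and the replicate block. The count of members with an unadjusted p value under 0.05 was 9, and it was 13 with the replicate block in limma, 7 to 9 with a library left out, and 7 with replicates 2 and 3 alone. Apart from the DESeq2 calls given in the report, the block changed no call of a member. The median log2 fold change of the members was 0.36, and it ranged from 0.32 to 0.43 with a library left out and was 0.31 with replicates 2 and 3 alone. The count of members without overlap was 10. It was 13 to 16 with a library left out, with 16 without WT replicate 2, and 18 with replicates 2 and 3 alone, when 35.4% of all genes tested did not overlap, against 10.9% with 3 libraries each, since fewer libraries overlap less often by construction. The count of all genes called was 25, and it was 16 at a mean of at least 50, 248 with DESeq2, 392 with DESeq2 and the replicate block, and 5 with replicates 2 and 3 alone. With a library left out it ranged from 0 to 10, and was 10 without replicate 1 of either line and 0 without WT replicate 2 or 3 or POLDIP2 KO replicate 2 or 3. The cause of these shifts was not tested. Of 640 values of single members under the alternatives, 21 changed sign without a call, in 9 members (IFI27, IFI44L, IFIT2, IFIT3, IFIT5, MX1, OAS3, SAMD9L and XAF1). Depth limits RSAD2, CMPK2, OASL and IFITM1, which were at the floor in at least 1 line.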

Other observations

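EIF2AK2 (PKR), a kinase that stops translation on binding double-stranded RNA and is itself induced by interferon, was chosen after its values were seen. It had 2492, 2787 and 2933 normalised counts in WT and 2588, 2161 and 1766 in POLDIP2 KO (log2 fold change -0.35, standard error 0.16, limma adjusted p = 0.826). Its 2 lowest libraries were thus POLDIP2 KO libraries, and POLDIP2 KO replicate 1 lay within the WT range, whereas most interferon-induced genes of the report were higher in POLDIP2 KO. The difference between EIF2AK2 and those genes was not tested.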
